A study of Danio rerio with 9 samples.

Results

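The transcription factors that switch on and maintain the skeletal muscle programme were measured in zebrafish muscle: the myogenic regulatory factors (MRFs) *myod1*, *myf5*, *myf6* and *myog*, the Mef2 factors *mef2aa*, *mef2ca*, *mef2cb* and *mef2d*, and *pax7a* and *pax7b*. The 10 genes were found by their symbols among the 32520 genes listed, and each symbol matched 1 row. RNA was sequenced from skeletal muscle between the dorsal and caudal fins, as 3 libraries in each of 3 groups. Each library was made from the pooled muscle of 2 fish. The fish were males chosen at 12 months of age, and muscle was taken after the 8-week training period. The *bves* KO-EX fish carried a CRISPR/Cas9 frameshift in *bves*, which encodes a cAMP-binding membrane protein of striated muscle, and swam against a current for 8 weeks, 1.5 h a day on 3 days followed by 1 day of rest, at about 10 and later 16 cm/s. The *bves* KO fish carried the knockout without training, and the WT fish (AB strain) carried neither the knockout nor the training. No group combined the WT genotype with training, so *bves* KO-EX against WT joins genotype and training, and *bves* KO-EX against *bves* KO compares training between groups that share the labelled genotype. The study made several frameshift lines and does not say which was sequenced.

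The MRFs are basic helix-loop-helix proteins that bind E-boxes as dimers with E proteins. Myf5 and MyoD commit cells to the muscle lineage, Myogenin drives the differentiation of myoblasts into fibres, and Myf6 (MRF4) remains the most abundant MRF of adult fibres in mammals. Mef2 proteins are MADS-box factors that act together with the MRFs on muscle genes, and class IIa histone deacetylases hold them inactive. Pax7 marks satellite cells, the stem cells that lie against the fibres. The deposited annotation gave a basic and a helix-loop-helix domain to the 4 MRFs, an SRF-type DNA-binding domain to the 4 Mef2 factors, and a paired domain and a homeodomain to both Pax7 proteins. In the RefSeq gene list of the assembly GRCz12tu, *myf6* and *myf5* were adjacent coding genes.

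Libraries held 17422188 to 18860779 estimated counts, so depth differed little between groups. The target gene was checked first. *bves* stood at 47.4, 11.4 and 49.6 CPM in the libraries labelled *bves* KO-EX, at 7.94, 17.5 and 6.70 CPM in *bves* KO, and at 39.5, 57.2 and 43.8 CPM in WT (CPM, counts scaled to library size after TMM normalization, replicates 1, 2 and 3). Replicates 1 and 3 of *bves* KO-EX therefore lay within the WT range for *bves* although labelled knockout. Below, *bves* KO-EX and knockout are what the labels say of a library. Calls that use the exercised group, and some of its estimates but not all, are also followed without those 2 libraries. *bves* itself differed by -2.13 ± 0.547 between *bves* KO and WT on the log2 scale (edgeR, SE, adjusted p = 0.104) and passed in DESeq2 (adjusted p = 0.00166). The 13 mitochondrially encoded genes made up 11.8% to 23.4% of counts, most in *bves* KO-EX replicate 1. WT replicate 2 stood apart in its scaling, with the lowest TMM factor (0.763, against up to 1.17 in *bves* KO-EX replicate 2). It held 157505 CPM of fast-fibre markers, against 77734 and 84303 CPM in the other WT libraries. CPM values are divided by the TMM factor, so these are not separate observations and the marker gap is in part the scaling. Fast-fibre markers were high in all libraries and the heart markers *myl7*, *nppa* and *nppb* were at 0 in all 9, as in the labelled tissue.

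Between genes, levels were compared per length, in TPM (the share of a transcript among all, after division by a length). That length is not the deposited gene length and is not given, so the order between genes rests on it. Of the 10 factors, 8 averaged above 1 TPM. *mef2ca* led the order in all groups, with means of 31.1 ± 5.10 TPM in *bves* KO-EX, 39.0 ± 6.61 TPM in *bves* KO, and, in WT, 31.6 ± 8.92 TPM (SD, n = 3 each). *mef2aa* came next at 30.6 ± 7.86 TPM in *bves* KO-EX, 29.6 ± 2.56 TPM in *bves* KO and, in WT, 31.5 ± 0.895 TPM, and its libraries overlapped those of *mef2ca* in *bves* KO-EX and WT. Every Mef2 factor stood above every MRF in 6 of the 9 libraries, and the order within each family moved with the group.

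Below them in WT came *mef2cb* (24.5 ± 4.62 TPM), *mef2d* (22.3 ± 7.89 TPM) and *myod1* (22.3 ± 2.55 TPM), whose libraries overlapped from 1 neighbour to the next. *myf6* followed at 16.8 ± 4.48 TPM in WT and *myog* at 11.8 ± 6.74 TPM, again with overlapping libraries. *myf5* was lower than all of these, with 2.72 ± 1.47 TPM in *bves* KO-EX, 3.04 ± 1.25 TPM in *bves* KO and, in WT, 4.70 ± 0.709 TPM, and its libraries were separate from those of its neighbours on either side in every group. In *bves* KO-EX, *mef2d* (25.6 ± 1.80 TPM) stood above *mef2cb* (16.5 ± 1.98 TPM) with no overlap, while *mef2cb* had the higher mean in WT.

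**Figure D1:**
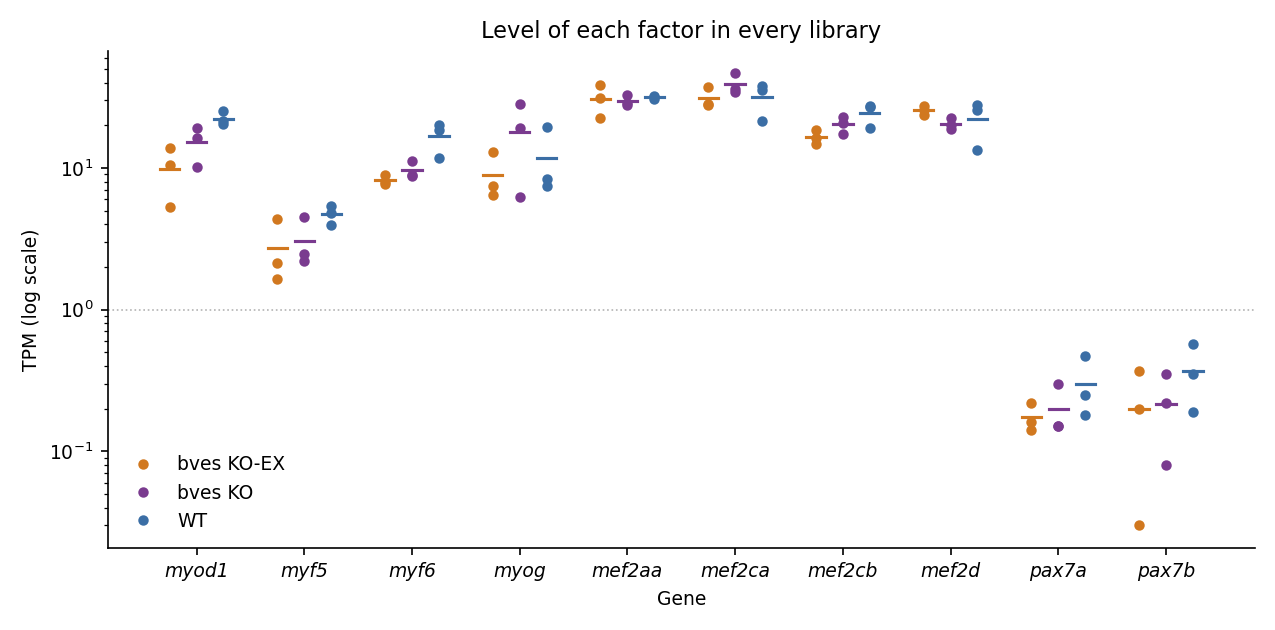
TPM of the 10 factors (log axis) in each of the 9 libraries, with *bves* KO-EX, *bves* KO and WT from left to right at each gene. Points are libraries, short bars are group means and the dotted line marks 1 TPM. The 4 Mef2 factors lie at 13.3 TPM or more in all libraries and both Pax7 genes lie below 1 TPM in all libraries.

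*myf6*, the MRF of mature fibres, was lower in every library labelled knockout than in every WT library, those 2 included, and in the group labelled *bves* KO-EX the difference passed the test. It stood at 4.56, 3.19 and 3.59 CPM in *bves* KO-EX, at 4.08, 4.44 and 5.07 CPM in *bves* KO and at 8.25, 8.13 and 8.41 CPM in WT. The WT libraries lay close together in CPM, and the *bves* KO-EX and *bves* KO libraries overlapped. In TPM, which is not TMM-scaled, the gap was narrower. TPM values were 8.97, 7.92 and 7.74 for the *bves* KO-EX libraries, 8.94, 8.82 and 11.2 for *bves* KO and 20.2, 11.7 and 18.5 for WT. WT replicate 2 came near those labelled knockout. It had 108 counts, against 172 and 166 counts in WT replicates 1 and 3, and a TMM factor of 0.763. How close the WT libraries lay in CPM therefore depends on the TMM scaling. Under scaling by total counts, the log2 fold change against WT was -1.03 ± 0.258 in *bves* KO-EX and -0.87 ± 0.256 in *bves* KO (edgeR). *myf6* fell 2.19-fold in *bves* KO-EX against WT (log2 fold change -1.13 ± 0.206, edgeR, adjusted p = 0.0169). In *bves* KO against WT the log2 fold change was -0.87 ± 0.204, which did not pass (edgeR, adjusted p = 0.0753). The call in *bves* KO-EX was lost without WT replicate 1 (adjusted p = 0.0547), without *bves* KO-EX replicate 3 (adjusted p = 0.0692) and under scaling by total counts (adjusted p = 0.0526), all in edgeR. Without *bves* KO-EX replicates 1 and 3 together the log2 fold change was -1.39 ± 0.324 (edgeR, adjusted p = 0.107).

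*myod1*, which commits cells to muscle, stood at 10.01, 20.2 and 17.9 CPM in *bves* KO-EX, at 31.4, 17.4 and 26.7 CPM in *bves* KO and at 35.3, 54.3 and 34.0 CPM in WT. Every library labelled knockout was again lower than every WT library. In TPM this held by a narrow gap, with 25.1, 21.3 and 20.3 TPM in WT and up to 19.15 TPM in *bves* KO. The *bves* KO-EX library with the knockout-like *bves* level, replicate 2, had the most *myod1* of its group, and *bves* KO replicate 2 had the least of its own, so the groups labelled knockout overlapped. *myod1* fell 2.56-fold in *bves* KO-EX against WT (log2 fold change -1.36 ± 0.312, edgeR, adjusted p = 0.0342). The log2 fold change was -0.71 ± 0.307 in *bves* KO against WT (adjusted p = 0.271) and -0.65 ± 0.309 in *bves* KO-EX against *bves* KO (edgeR, adjusted p = 0.348), and neither passed.

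The *myod1* call was less stable than that of *myf6*. It was lost in 6 of the 9 edgeR fits that left out 1 library, with an adjusted p of 0.0722 and 0.0973 without WT replicates 1 and 2, 0.0535 and 0.0537 without *bves* KO replicates 1 and 3, and 0.0933 and 0.0920 without *bves* KO-EX replicates 1 and 3. It was also lost under total-count scaling (adjusted p = 0.0684), with only the 6 libraries compared (adjusted p = 0.0583) and with the replicate block (edgeR, adjusted p = 0.0574). Without *bves* KO-EX replicates 1 and 3 together, its log2 fold change was -1.05 ± 0.415 (edgeR, adjusted p = 0.265). *myod1* also had counts that were not whole in 8 of 9 libraries and *myog* in 9 of 9. Why was not tested, and both levels are uncertain to that extent.

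*myf5*, the other commitment factor, stood at 2.17, 4.74 and 2.61 CPM in *bves* KO-EX, at 2.90, 3.00 and 5.39 CPM in *bves* KO and at 4.22, 9.79 and 5.92 CPM in WT. WT replicate 2 was the highest library, also in TPM, where the WT libraries lay nearer each other (3.95, 5.36 and 4.78 TPM). The groups overlapped for *myf5*. Its log2 fold change was -1.05 ± 0.396 in *bves* KO-EX against WT (edgeR, adjusted p = 0.132) and -0.81 ± 0.394 in *bves* KO against WT (edgeR, adjusted p = 0.320). Neither passed, although the estimates were about as large as those of *myf6*, and the SE was wider. The exercised estimate was -0.50 ± 0.521 without *bves* KO-EX replicates 1 and 3 (edgeR, adjusted p = 0.661).

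*myog*, the differentiation factor, gave another order of values than the other MRFs and no call. It stood at 15.3, 24.4 and 18.5 CPM in *bves* KO-EX, at 32.0, 17.8 and 49.2 CPM in *bves* KO and at 27.1, 19.7 and 17.2 CPM in WT. *bves* KO held both the highest library and a library among the lowest, and all groups overlapped. The log2 fold change was 0.63 ± 0.339 in *bves* KO against WT (adjusted p = 0.364), -0.14 ± 0.339 in *bves* KO-EX against WT (adjusted p = 0.832) and -0.76 ± 0.339 in *bves* KO-EX against *bves* KO (edgeR, adjusted p = 0.314). The ratio of *myog* to *myod1* TPM ran from 0.708 to 1.20 in *bves* KO-EX, from 0.617 to 1.75 in *bves* KO and from 0.349 to 0.777 in WT, which also overlapped.

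**Figure D2:**
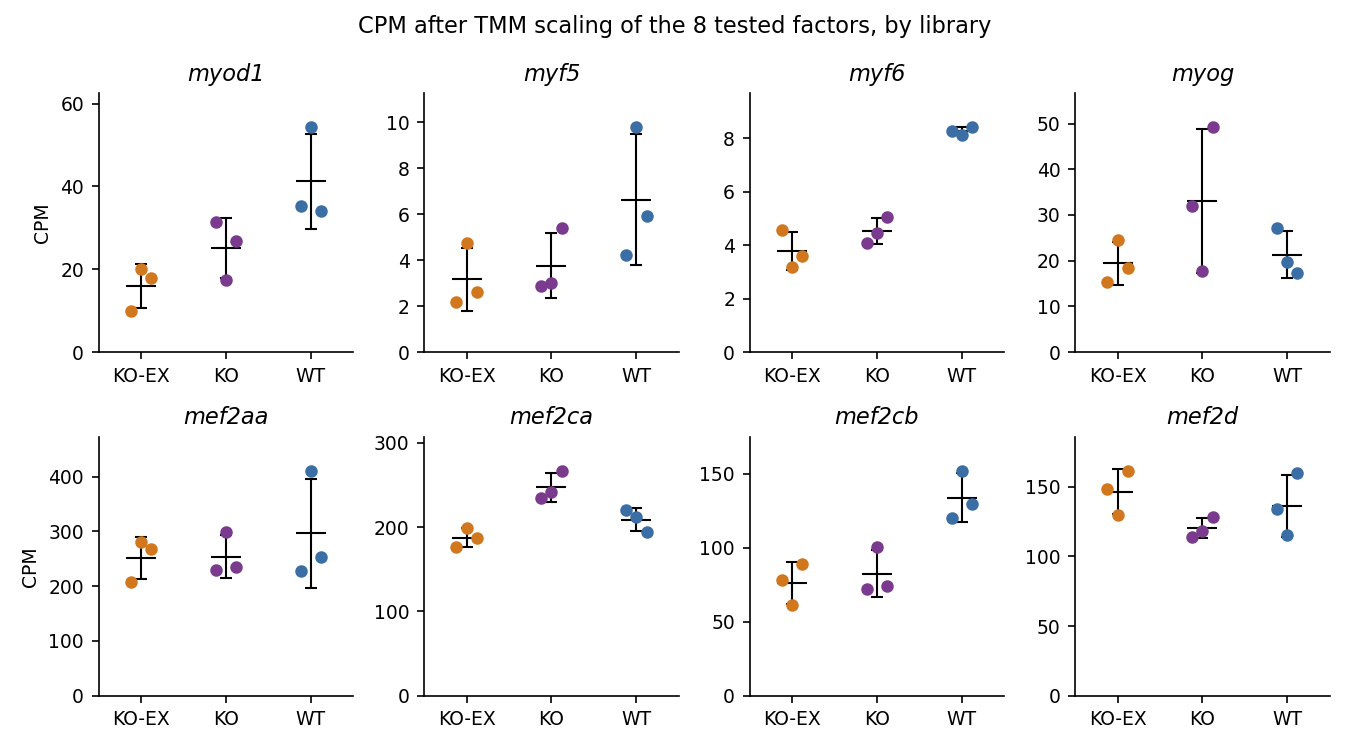
CPM after TMM scaling of the 8 tested factors, each on its own linear axis from 0. Points are libraries in *bves* KO-EX, *bves* KO and WT, and the bars with whiskers are the mean and SD (n = 3). All libraries labelled knockout lie below all WT libraries for *myod1*, *myf6* and *mef2cb*, and not for the other 5 genes. The share of all tested genes that meet this joint condition was not counted. Taken separately, 13.0% were lower than WT without overlap in *bves* KO-EX and 10.2% in *bves* KO, against the same WT libraries.

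Among the Mef2 factors, *mef2cb* was the member whose CPM was lower in every library labelled knockout than in every WT library, without passing the edgeR test. It stood at 78.3, 61.2 and 89.2 CPM in *bves* KO-EX, at 71.9, 101 and 74.4 CPM in *bves* KO and at 120, 152 and 129 CPM in WT. *bves* KO-EX and *bves* KO overlapped each other on this scale, while in TPM the *bves* KO libraries (17.4, 22.8 and 20.9 TPM) overlapped WT (27.5, 19.1 and 26.8 TPM) through WT replicate 2. The log2 fold change was -0.81 ± 0.227 in *bves* KO-EX against WT (edgeR, adjusted p = 0.0620) and -0.70 ± 0.227 in *bves* KO against WT (edgeR, adjusted p = 0.157), so neither passed. DESeq2 on the same counts passed both, with an adjusted p of 0.00585 in *bves* KO-EX against WT and 0.0428 in *bves* KO against WT. The estimate was -1.15 ± 0.347 without *bves* KO-EX replicates 1 and 3 (edgeR, adjusted p = 0.177).

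The share of *mef2cb* in the summed TPM of the 4 Mef2 factors does not depend on how libraries are scaled against each other. It was 16.4%, 13.9% and 17.7% in *bves* KO-EX, 17.2%, 21.1% and 17.6% in *bves* KO and 22.6%, 22.2% and 22.0% in WT. All 6 libraries labelled knockout were below all 3 WT libraries, the range of WT was narrow, and *bves* KO-EX and *bves* KO overlapped. The lowest *mef2cb* share was in *bves* KO-EX replicate 2, the exercised library with the knockout-like *bves* level. A share also depends on the other members. That of *mef2ca* was 35.8%, 31.5% and 39.3% in *bves* KO and 31.1%, 24.8% and 29.2% in WT, also without overlap. The *mef2d* share was 26.5%, 22.0% and 26.0% in *bves* KO-EX, above 19.8%, 17.5% and 18.9% in *bves* KO. A lower *mef2cb* share is therefore not by itself a lower *mef2cb* level. Against its closest paralogue *mef2ca*, *mef2cb* stood at a TPM ratio of 0.439 to 0.666 in *bves* KO-EX, 0.449 to 0.669 in *bves* KO and 0.726 to 0.896 in WT. With 3 libraries a group, an exact two-sided permutation test cannot give a p under 0.1, so these non-overlapping ratios are given as values.

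The other Mef2 factors did not pass in any comparison. *mef2aa* stood at 207, 280 and 267 CPM in *bves* KO-EX, at 229, 298 and 235 CPM in *bves* KO and at 227, 411 and 253 CPM in WT, with WT replicate 2 far above the rest. In TPM, which is not TMM-scaled, WT stood at 30.6, 32.4 and 31.45 TPM. The CPM height of WT replicate 2 is in part the TMM scaling, and its count was also the highest of WT (5455, against 4735 and 4996). The direction of *mef2aa* turned when WT replicate 2 was left out. Its log2 fold change was -0.22 ± 0.275 in *bves* KO against WT (edgeR, adjusted p = 0.713) and 0.091 without that library. *mef2aa* thus showed no direction that held, and the 95% normal interval for *bves* KO against WT ran from -0.76 to 0.31.

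*mef2ca* and *mef2d* differed in opposite directions between *bves* KO-EX and *bves* KO, and neither difference passed the test. *mef2ca* stood at 177, 199 and 186 CPM in *bves* KO-EX, at 234, 241 and 267 CPM in *bves* KO and at 220, 213 and 194 CPM in WT. In CPM, *bves* KO was the highest group with no overlap with either of the others. In TPM it overlapped both, with 36.3, 34.1 and 46.5 TPM for *bves* KO. The other values were 28.4, 37.0 and 27.95 TPM for *bves* KO-EX and 37.8, 21.3 and 35.5 TPM for WT. Its log2 fold change was 0.24 ± 0.198 in *bves* KO against WT (adjusted p = 0.555) and -0.40 ± 0.198 in *bves* KO-EX against *bves* KO (edgeR, adjusted p = 0.373). *mef2d* stood at 148, 130 and 161 CPM in *bves* KO-EX, at 114, 119 and 128 CPM in *bves* KO and at 134, 115 and 160 CPM in WT, so that only *bves* KO-EX and *bves* KO were separate (log2 fold change 0.29 ± 0.208, edgeR, adjusted p = 0.595). The ratio of *mef2d* to *mef2ca* TPM was 0.697 to 0.975 in *bves* KO-EX, 0.480 to 0.555 in *bves* KO and 0.622 to 0.785 in WT, so *bves* KO was below both. The estimates against *bves* KO were -0.33 ± 0.318 for *mef2ca* and 0.093 ± 0.311 for *mef2d* without *bves* KO-EX replicates 1 and 3 (edgeR, adjusted p = 0.758 and 0.943).

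**Figure D3:**
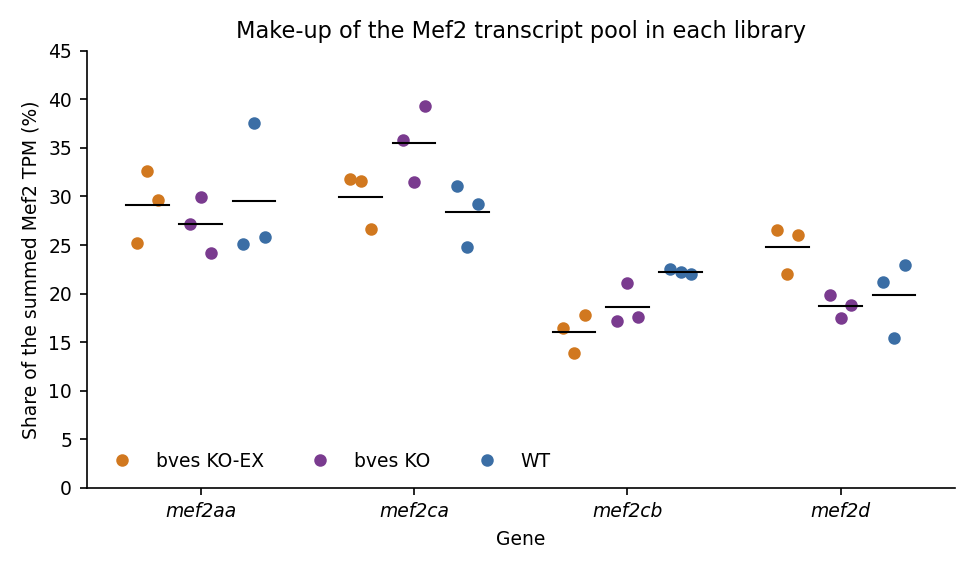
Share of each Mef2 factor in the summed Mef2 TPM of a library, in percent, for *bves* KO-EX, *bves* KO and WT from left to right. Points are libraries and lines are group means. *mef2cb* takes 13.9% to 21.1% in the libraries labelled knockout and 22.0% to 22.6% in WT, with no overlap. The *mef2ca* share in *bves* KO lies above that in WT, also with no overlap.

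As whole families, the summed MRF level in the exercised libraries was 22.3, 39.0 and 27.8 TPM, beside 49.8, 27.4 and 60.3 TPM in *bves* KO and, in WT, 68.8, 45.8 and 51.9 TPM. Exercised libraries were below WT without overlap, and *bves* KO overlapped both. The summed Mef2 level was 104 ± 14.01 TPM in *bves* KO-EX, 109 ± 8.49 TPM in *bves* KO and, in WT, 110 ± 20.5 TPM (SD, n = 3 each). The Mef2 sum therefore differed by less than the spread between libraries, also where *mef2cb* took a smaller share of it. In bulk muscle, fewer cells of a type and less RNA per cell cannot be told apart.

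*pax7a* and *pax7b* were at the edge of detection and did not pass the filter on low counts. *pax7a* had 7, 9 and 6 counts in *bves* KO-EX, 12, 6 and 6 counts in *bves* KO and 10, 8 and 20 counts in WT. *pax7b* had 8, 1 and 8 counts in *bves* KO-EX, 4, 3 and 8 counts in *bves* KO and 18, 8 and 8 counts in WT. The counts of the groups overlapped for both genes. In CPM, *pax7a* stood at 0.389, 0.422 and 0.326 in *bves* KO-EX, at 0.644, 0.346 and 0.327 in *bves* KO and at 0.480, 0.603 and 1.01 in WT, so that *bves* KO-EX was below WT without overlap on that scale, while *pax7b* overlapped. In a fit with no filter, the log2 fold change against WT was -0.88 for *pax7a* and -1.03 for *pax7b* in *bves* KO-EX (edgeR, adjusted p = 0.454 and 0.493), and -0.65 and -1.16 in *bves* KO (edgeR, adjusted p = 0.692 and 0.549). A difference in either Pax7 transcript was not detectable at this depth.

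Counted over the factors, 0 of the 8 tested passed in *bves* KO against WT by edgeR, 3 had an unadjusted p under 0.05 (*myod1*, *myf6* and *mef2cb*, against 16.9% of all genes) and DESeq2 passed 2 of them (*myf6* and *mef2cb*, against 4.78% of all genes with an adjusted p in DESeq2). Over all 14849 tested genes, edgeR passed 1.11% in that comparison. The groups did not overlap for 4 of the 8 (*myod1*, *myf6* and *mef2cb* lower, *mef2ca* higher), against 21.4% of all tested genes (10.2% lower and 11.2% higher), and for 2 of the 8 in TPM, against 15.4% of all tested genes in TPM. The median log2 fold change of the 8 was -0.46, beside -0.03 over all tested genes.

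In *bves* KO-EX against WT, 2 of the 8 passed, both lower (*myod1* and *myf6*), against 5.39% of all tested genes in either direction and 2.34% lower. An unadjusted p under 0.05 was reached by 4 (against 25.1% of all genes), *myf5* and *mef2cb* in addition, and DESeq2 passed 3 (against 11.8% of all genes). The groups did not overlap for 3, all lower, against 28.0% of all genes in either direction and 13.0% lower. The median was -0.53, beside 0.01 over all tested genes. Without *bves* KO-EX replicates 1 and 3, none of the 8 passed in edgeR, in a fit where the lone exercised library was assumed to vary like the other groups.

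In *bves* KO-EX against *bves* KO, where 2 of the 3 exercised libraries had the WT-like *bves* level, 0 of the 8 passed by edgeR and 0 by DESeq2 (against 4.94% of all genes with an adjusted p in DESeq2), with 1 (*myog*) at an unadjusted p under 0.05, against 15.3% of all genes. Over all tested genes 1.64% passed. In CPM, the groups did not overlap for *mef2ca* (lower) and *mef2d* (higher), against 23.0% of all genes (10.8% lower and 12.2% higher). In TPM, the *mef2ca* libraries of these groups overlapped. The median of the 8 was -0.25, beside 0.01 over all tested genes. The 95% normal intervals, which are narrower than the test implies, ran from -0.67 to 0.14 for *myf6* and from -1.25 to -0.04 for *myod1*. That of *myod1* left out 0 although its unadjusted p was 0.0590 (edgeR). These data do not show the exercised and unexercised groups to be alike. The comparisons share libraries, and their values are therefore not independent of each other.

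**Figure D4:**
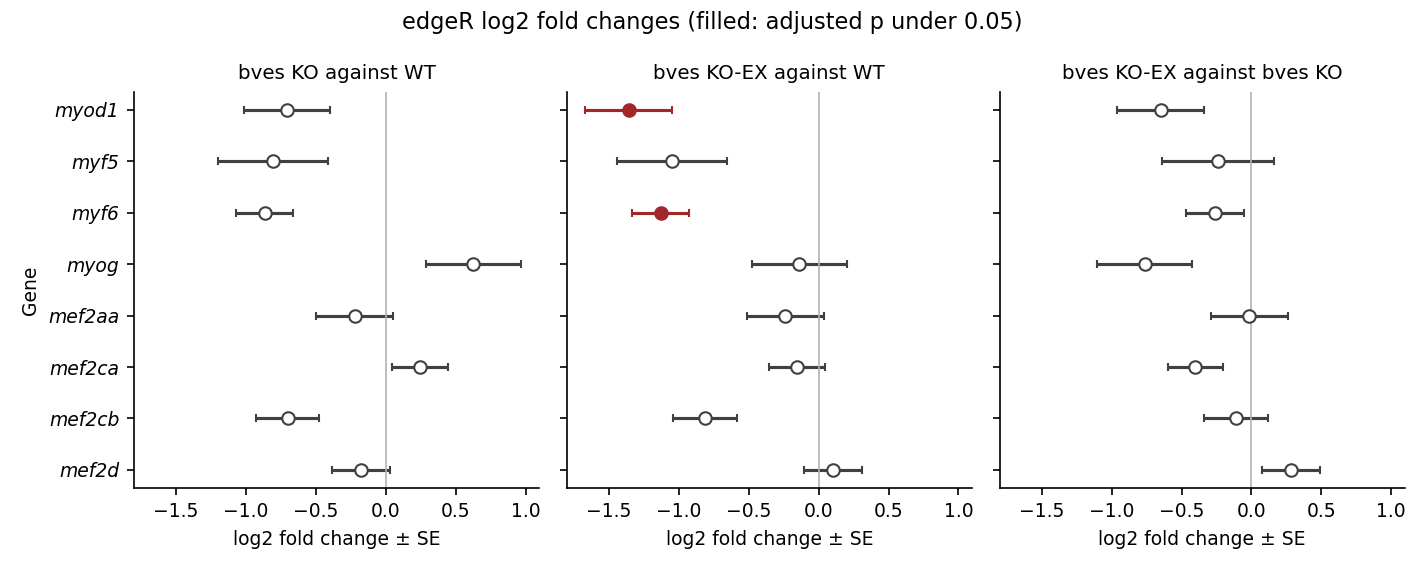
edgeR log2 fold changes with SE of the 8 tested factors, for *bves* KO against WT, *bves* KO-EX against WT and *bves* KO-EX against *bves* KO. Filled points passed an adjusted p of 0.05, which only *myod1* (-1.36) and *myf6* (-1.13) in *bves* KO-EX against WT did.

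**Figure D5:**
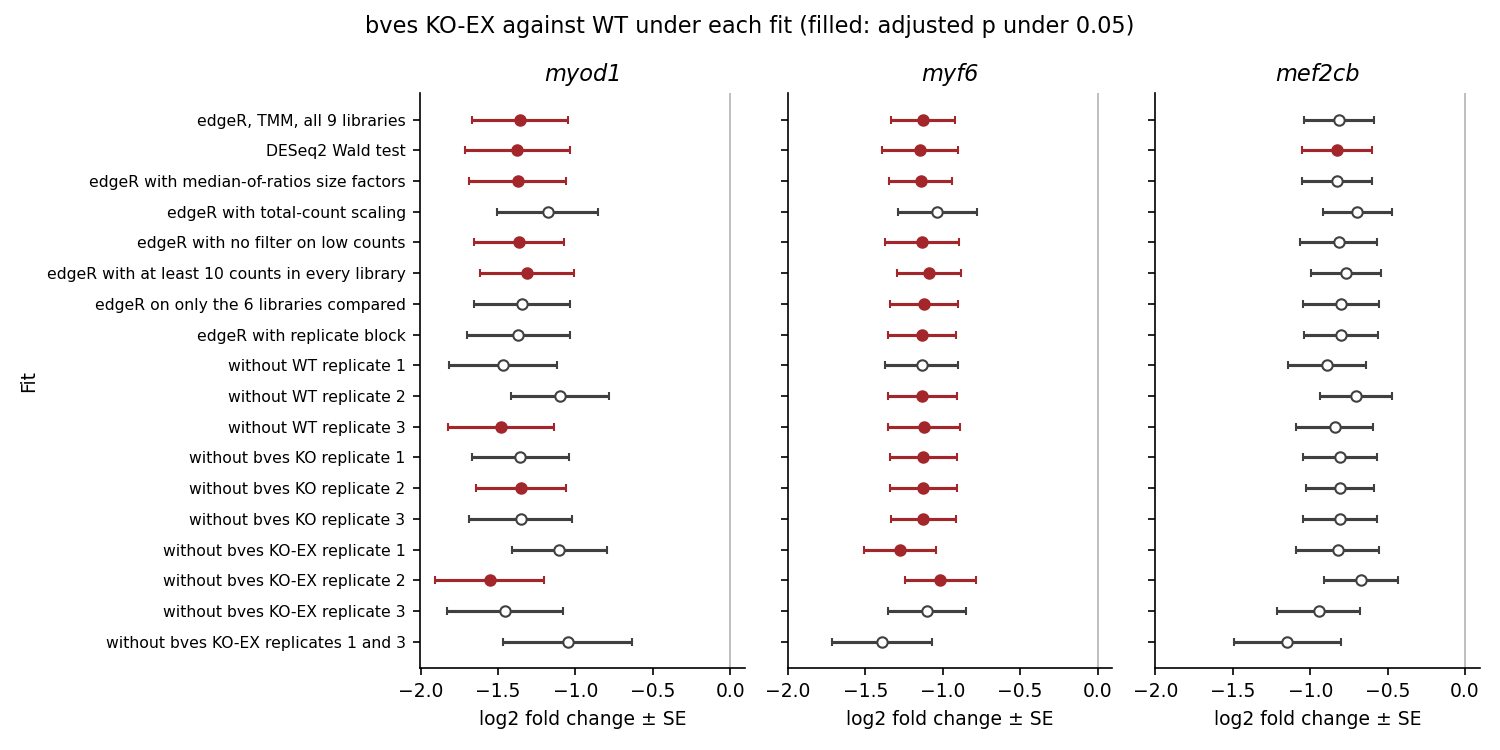
log2 fold change with SE of *myod1*, *myf6* and *mef2cb* in *bves* KO-EX against WT under each fit, a row per fit, filled where the adjusted p was under 0.05. All estimates lie below 0, from -1.55 to -1.05 for *myod1* and from -1.39 to -1.02 for *myf6*, while the calls come and go with the fit.

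Across the 9 libraries, without regard to group, *myf6* varied most like *mef2cb* among the factors (Pearson r = 0.87 on log2 CPM) and *myod1* most like *myf5* (r = 0.81). *myog* varied with *mef2ca* (r = 0.77) and *mef2ca* against *mef2d* (r = -0.69). Of 14848 other tested genes, those most like *myf6* were *timm44*, which encodes a motor subunit of mitochondrial protein import, at r = 0.98, *tmem106ba* at 0.96 and *gnptab* at 0.96, and 65 genes had r above 0.9. Those most like *myod1* were *mhc1zba* (r = 0.97), *snx1a* (r = 0.96) and *znf346* (r = 0.96), and 33 genes had r above 0.9. These correlations describe 9 libraries that share the group differences and the scaling, and with so few libraries many genes reach such values.

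Partners, inhibitors and targets of the factors were taken from 10 lists with 111 genes, of which 105 were found and 83 tested. Over the lists together, 1 gene rose and 1 fell in *bves* KO against WT (2.41% of 83, against 1.11% of all tested genes), and 2 rose and 2 fell in *bves* KO-EX against WT (4.82%, against 5.39%). Between *bves* KO-EX and *bves* KO none of the 83 passed in edgeR, 12 had an unadjusted p under 0.05 (15.3% of all tested genes did) and DESeq2 passed 4 (against 4.94% of all genes). No list as a whole is read as a result. The members that moved are named next.

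*snai2*, a zinc-finger repressor that competes with MyoD for E-boxes in mouse myoblasts, rose in both groups labelled knockout and was the 1 gene of 9 tested MRF inhibitors that passed. It stood at 9.06, 6.47 and 7.07 CPM in *bves* KO-EX, at 9.44, 11.4 and 8.33 CPM in *bves* KO and at 3.88, 3.31 and 4.61 CPM in WT. Every library labelled knockout was above every WT library. The log2 fold change was 0.93 ± 0.223 in *bves* KO-EX against WT (edgeR, adjusted p = 0.0393) and 1.30 ± 0.224 in *bves* KO against WT (edgeR, adjusted p = 0.0265).

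*six4b*, a homeobox factor of the sine oculis group that acts upstream of the MRFs, fell in both groups labelled knockout. It stood at 10.01, 6.75 and 10.2 CPM in *bves* KO-EX, at 4.83, 6.92 and 7.84 CPM in *bves* KO and at 16.2, 17.3 and 16.1 CPM in WT, again with no overlap between either of these groups and WT. The log2 fold change was -0.88 ± 0.227 in *bves* KO-EX against WT (edgeR, adjusted p = 0.0490) and -1.34 ± 0.231 in *bves* KO against WT (edgeR, adjusted p = 0.0265). *eya1*, which encodes a coactivator of these homeobox proteins, stood at 21.7, 27.1 and 29.5 CPM in *bves* KO-EX, at 41.3, 41.4 and 40.5 CPM in *bves* KO and at 36.6, 47.2 and 43.4 CPM in WT. It fell in the exercised group against WT (log2 fold change -0.70 ± 0.182, edgeR, adjusted p = 0.0498), while *bves* KO and WT overlapped. These were the 2 calls among the 9 tested genes of the list that holds the remaining Mef2, Pax3, sine oculis and Eya factors in *bves* KO-EX against WT.

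*tcf3b*, an E protein and so a dimer partner of the MRFs, stood highest in the exercised libraries, at 21.2, 18.4 and 18.97 CPM in *bves* KO-EX, against 11.9, 12.2 and 11.9 CPM in *bves* KO and 11.9, 13.5 and 12.2 CPM in WT. It rose against WT (log2 fold change 0.64 ± 0.156, edgeR, adjusted p = 0.0408) and just missed the threshold against *bves* KO (0.70 ± 0.156, edgeR, adjusted p = 0.0513). *tcf3b* was 1 of 3 tested E proteins, and the others did not pass in edgeR. In *bves* KO-EX against *bves* KO, DESeq2 passed 1 of the 3, which was higher (against 4.94% of all genes with an adjusted p in DESeq2). *tcf3b* was the 1 with an edgeR estimate above 0 there.

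All of these calls sit near the threshold. For *bves* KO-EX against WT, the edgeR calls of *six4b*, *tcf3b* and *eya1* were lost whichever library was left out (adjusted p from 0.0585 to 0.117, 0.0548 to 0.117 and 0.0681 to 0.152), and that of *snai2* was kept in 3 of the 9 such fits, lost without WT replicates 1 and 2, *bves* KO replicates 1 and 3 and *bves* KO-EX replicates 1 and 3 (up to adjusted p = 0.115). In *bves* KO against WT, *snai2* was kept in 4 of the 9 fits, lost without WT replicates 1 and 2 and without each *bves* KO library (up to adjusted p = 0.0928), and *six4b* in 5 of 9, lost without WT replicates 1 and 2 and *bves* KO replicates 1 and 3 (up to adjusted p = 0.116). Without *bves* KO-EX replicates 1 and 3 together, none of the 4 passed against WT in edgeR, with an adjusted p of 0.318 for *snai2*, 0.133 for *six4b*, 0.323 for *tcf3b* and 0.289 for *eya1*.

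The lists of downstream genes had no call. Of 14 tested structural genes that MRFs and Mef2 factors activate, such as those for creatine kinase and troponin T, 0 passed by edgeR in any comparison, with 1 at an unadjusted p under 0.05 against WT in each of *bves* KO-EX and *bves* KO and 1 passed by DESeq2 in each. Of 6 tested acetylcholine receptor and synapse genes, 0 passed by edgeR or DESeq2 and 1 had an unadjusted p under 0.05 against WT in each of these groups. That gene was *chrng*, the embryonic receptor subunit that is also made in denervated fibres of mammals, named here after its values were seen. It stood at 1.39, 2.39 and 2.07 CPM in *bves* KO-EX, at 2.31, 2.42 and 1.80 CPM in *bves* KO and at 0.719, 0.979 and 1.37 CPM in WT, with *bves* KO-EX and *bves* KO both above WT without overlap (edgeR, adjusted p = 0.124 in *bves* KO-EX and 0.149 in *bves* KO). The median log2 fold change of the 6 was -0.02 in *bves* KO-EX against WT and 0.21 in *bves* KO against WT. In the latter all 6 estimates were above 0, as were 7082 of all 14849 tested genes. In *bves* KO-EX, 3 of the 6 were below 0 against WT and 5 against *bves* KO. Of the 14 structural genes, 8 were below 0 in *bves* KO against WT, 9 in *bves* KO-EX against WT and 13 against *bves* KO, where 7320 of all tested genes were.

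Lists of cell state were likewise without a call in edgeR. Over all tested genes, an unadjusted p under 0.05 was reached by 25.1% in *bves* KO-EX against WT and 16.9% in *bves* KO against WT, and DESeq2 passed 11.8% and 4.78%. Of 11 tested proliferation genes, 1 had an unadjusted p under 0.05 in *bves* KO-EX against WT and 2 in *bves* KO against WT, and DESeq2 passed 0. Of 11 tested satellite cell surface and niche genes, 3 did so in *bves* KO-EX against WT and 1 in *bves* KO against WT, and DESeq2 passed 1 in *bves* KO-EX against WT. Of 8 tested myoblast fusion genes, 5 did so in *bves* KO-EX against WT, where DESeq2 passed 3, and 1 in *bves* KO against WT, where it passed 0. Of 8 tested slow-fibre and fibre-type genes the counts were 3 and 0, with a median log2 fold change of -0.64 in *bves* KO-EX against WT and -0.18 in *bves* KO against WT, and DESeq2 passed 0. The class IIa histone deacetylases, which repress Mef2 proteins, had 4 tested members, of which 1 was under an unadjusted p of 0.05 in *bves* KO-EX against WT and 0 in *bves* KO against WT, with 0 passed by DESeq2 in either. In *bves* KO-EX against *bves* KO, 15.3% of all genes had an unadjusted p under 0.05 and DESeq2 passed 4.94%. Of these 4 deacetylases, 2 were under that p and DESeq2 passed 1, which was higher, while the 4 estimates ran from -1.23 to 1.32. The unadjusted counts there were 3 of 8 fusion, 2 of 11 satellite cell, 1 of 8 fibre-type and 0 of 11 proliferation genes. Among these, DESeq2 passed 1 satellite cell gene, which was lower.

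Markers of some other cell types, though not of all, differed in their sum between groups. The summed level of 5 fibroblast markers was 747 to 1050 CPM in *bves* KO-EX, 548 to 845 CPM in *bves* KO and 294 to 373 CPM in WT, with no overlap between either group and WT. The collagens made up most of this sum. Of the 5, *col1a1a*, a chain of type I collagen, rose in *bves* KO-EX against WT (log2 fold change 1.99 ± 0.284, edgeR, adjusted p = 0.00575), as did *col1a2* (1.70 ± 0.269, edgeR, adjusted p = 0.00979). *col1a1a* also rose in *bves* KO against WT (1.39 ± 0.279, edgeR, adjusted p = 0.0434), a call kept in 2 of the 9 fits without 1 library, with an adjusted p of up to 0.169 (without *bves* KO replicate 3). With *bves* KO-EX replicate 2 as the only exercised library, the estimates were 2.04 ± 0.359 for *col1a1a* and 1.82 ± 0.353 for *col1a2* (edgeR, adjusted p = 0.0559 and 0.0705). The other 3 did not pass in either group. *pdgfra*, a receptor of fibroblast progenitors, went the other way (log2 fold change -0.44 in *bves* KO-EX and -0.89 in *bves* KO, edgeR, adjusted p = 0.179 and 0.0560), *lum* was near WT (0.083 and 0.15) and *dcn* was at 0.61 and 0.43. *snai2* is also expressed in fibroblasts, and the part of these cells in the changes of *snai2*, *myod1* and *myf6* was not tested.

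The summed markers of 2 further cell types also differed between some of the groups. The summed level of 5 epidermis markers was 522 to 809 CPM in *bves* KO-EX, 538 to 628 CPM in *bves* KO and 423 to 473 CPM in WT, with no overlap between either group and WT. None of the 4 tested epidermis markers passed by edgeR. Against WT, all 4 estimates were above 0 in *bves* KO-EX. In *bves* KO, 2 were above 0 and 2 below, with a median log2 fold change of -0.44, so the sum hides opposite directions. *krt5* stood at 236, 72.5 and 24.5 CPM in *bves* KO-EX, at 0.858, 1.38 and 4.90 CPM in *bves* KO and at 75.4, 3.24 and 29.5 CPM in WT. Most of the epidermis sum was *krt8*, with means of 404 CPM in *bves* KO-EX, 470 CPM in *bves* KO and 345 CPM in WT. The 5 endothelial markers summed to 191 to 297 CPM in *bves* KO-EX, 275 to 340 CPM in *bves* KO and 200 to 270 CPM in WT. Only *bves* KO was above WT without overlap, *bves* KO-EX overlapped both, and none of these markers passed. Their part in the results above was not tested.

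The summed level of 6 leukocyte markers was 115 to 226 CPM in *bves* KO-EX, 141 to 199 CPM in *bves* KO and 120 to 195 CPM in WT, and all groups overlapped. Of the 6 estimates in *bves* KO-EX against WT, 4 were above 0 and 2 below, the lowest for *mpx* (-1.42, edgeR, adjusted p = 0.211). By edgeR 2 passed, *ptprc* (log2 fold change 0.96, adjusted p = 0.0410) and *marco* (1.34, adjusted p = 0.0163). The *ptprc* call was kept in 2 of the 9 fits without 1 library, without *bves* KO replicates 2 and 3, with an adjusted p of up to 0.115 in the rest (edgeR), and *marco* was lost without *bves* KO-EX replicate 3 (edgeR, adjusted p = 0.0511). Neither passed without *bves* KO-EX replicates 1 and 3 (edgeR, adjusted p = 0.168 and 0.0805).

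The summed erythrocyte, Schwann cell and adipocyte markers overlapped between all groups. The summed fast-fibre level was 97992 to 118046 CPM in *bves* KO-EX, 106980 to 131881 CPM in *bves* KO and 77734 to 157505 CPM in WT. WT overlapped the others through replicate 2 alone, and WT replicates 1 and 3 stood below all libraries labelled knockout. The height of WT replicate 2 on this scale is in part its TMM factor (0.763), by which its CPM values are divided.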

How the data were processed

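Poly(A)-selected, stranded RNA-seq libraries of 9 pools of skeletal muscle were analysed. The authors deposited estimated counts per Ensembl gene, which need not be whole, and TPM values per library. The deposited gene lengths do not give these TPM values. In *bves* KO, *mef2aa* (1844 bases) averaged 254 CPM and 29.6 TPM, and *mef2ca* (4285 bases) averaged 247 CPM and 39.0 TPM. The lengths used for TPM are not given, so the order of genes in TPM rests on lengths not known here. The submitters' processing notes name fastp, HISAT2, StringTie and RSEM without roles or versions, and the genome build is not given in the sources used here. The gene length column and the group mean TPM columns were not tested. Deposited columns of the authors' own comparisons (linear fold ratio, log2 fold change, p-value and adjusted p-value) were not used. The *bves* KO columns of both deposited tables were identical, with 0 values differing.

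Counts were rounded, and 14849 genes passed edgeR's filterByExpr (24715 had a count above 0). The test was edgeR's quasi-likelihood F test (edgeR 4.0.16, limma 3.58.1, R 4.3.3) on all 9 libraries with TMM scaling, two-sided, and p-values were adjusted over these genes by Benjamini-Hochberg. A gene passed at an adjusted p under 0.05. The SE came from the fold change and its F statistic. The common biological coefficient of variation was 0.295. DESeq2 1.42.0, other scalings and filters, a replicate block and fits without libraries were alternatives. In simulated counts, edgeR passed 13% of true 2-fold changes and 94% of true 4-fold changes. DESeq2 passed 19% and 93% of them. A gene without a call may therefore still differ by 2-fold. Of the genes that passed in these simulated counts, 5.31% had no true change by edgeR and 8.94% by DESeq2. Replicates were pools of different fish, and the labels do not say whether they came from separate tanks or days. No 2 libraries of a group agreed within counting noise (chi-square per degree of freedom 23.7 or more). Counting error sets only a lower limit to the spread of low counts, and no molecular identifiers were used.

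The members and lists were chosen with earlier results of these data known. Genes named besides the 10 are *bves*, list genes that passed (at most 4 a list) and, for members that passed, the 3 genes most alike over the libraries. *chrng* and the marker genes were named outside this rule, after their values were seen. The study's methods name DESeq with a fold limit for its differential genes, and DESeq2, DEGseq and edgeR for its volcano plot. Here edgeR was the main test, without a fold limit.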

Additional observations from a re-analysis of the deposited data

How the results depend on the processing

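Over the 24 log2 fold changes of the 8 tested factors, directions against WT held for *myod1*, *myf5*, *myf6*, *mef2ca* and *mef2cb* under every alternative fit, and the calls did not. Without *bves* KO-EX replicates 1 and 3 together, the sign turned for *myog* (0.17) and *mef2d* (-0.089) against WT and for *myf5* (0.31) and *mef2aa* (0.12) against *bves* KO. *mef2aa* in *bves* KO-EX against *bves* KO was also 0.11 under total-count scaling and 0.011 with at least 10 counts in every library. Leaving out 1 library, the log2 fold change of *mef2aa* ran from -0.39 to 0.091 in *bves* KO against WT, from -0.41 to 0.077 in *bves* KO-EX against WT and from -0.10 to 0.11 in *bves* KO-EX against *bves* KO. In the same fits it ran from -0.34 to 0.066 for *myog* and from -0.68 to 0.055 for *bves* in *bves* KO-EX against WT, and from -0.66 to 0.11 for *myf5* and -0.24 to 0.055 for *mef2cb* in *bves* KO-EX against *bves* KO.

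The number of factors passing in *bves* KO against WT was 0 by edgeR and 2 by DESeq2. In *bves* KO-EX against WT it was 2, and it became 0 under total-count scaling, 1 with only the 6 libraries compared, 1 with the replicate block, 0 without *bves* KO-EX replicates 1 and 3, and 0 to 2 without 1 library. The number of all tested genes passing in *bves* KO against WT was 165 (112 higher), with 709 by DESeq2, 82 under total-count scaling and 34 (without *bves* KO replicate 3) to 224 without 1 library. In *bves* KO-EX against WT it was 801 (454 higher), with 1752 by DESeq2, 411 (291 higher) under total-count scaling, 317 with 6 libraries, 52 without both *bves* KO-EX libraries and 166 (without *bves* KO-EX replicate 3) to 1135 without 1 library. In *bves* KO-EX against *bves* KO it was 243 (107 higher), with 690 by DESeq2, 109 (60 higher) under total-count scaling, 147 with the replicate block, 5 without both libraries and 20 (without *bves* KO replicate 1) to 255 without 1 library. The cause of these moves was not tested, beyond the fewer libraries that the smaller fits hold. Total-count scaling shifted the all-gene median to 0.11 wherever *bves* KO-EX was compared, and relative to it *myod1* stood at -1.29 and *myf6* at -1.14 against WT.

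Same-numbered libraries come from different fish and share only a number. Their deviations correlated at -0.01, 0.12 and 0.16 in *bves* KO and WT, at -0.03, -0.03 and -0.01 in *bves* KO-EX and WT, and at -0.04, -0.28 and -0.14 in the knockout groups, and in no comparison did every library correlate best with its own number. With the replicate block, *myf6* passed in *bves* KO-EX against WT (log2 fold change -1.13, edgeR, adjusted p = 0.0306) and *myod1* did not (-1.37, edgeR, adjusted p = 0.0574). With 3 libraries a group, spread limits all calls, and depth limits the Pax7 genes.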
